A study of Mus musculus with 6 samples.

Results

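Bone morphogenetic protein (BMP) signalling was examined in mouse ovarian surface epithelium, the cell layer that covers the ovary, through 10 genes. These were the ligands Bmp2, Bmp4 and Bmp7, the receptors Bmpr1a and Bmpr2, the inhibitory Smads Smad6 and Smad7, and the response genes Id1, Id2 and Id3. The members were all probe sets of the array that the platform annotation assigns to exactly 1 of these symbols, which gave 22 of 45037 probe sets. All 10 genes, of 18193 with a probe set of their own, were represented. Primary cells came from virgin FVB/N females of 8 weeks. After 24 hours in culture they were sorted on aldehyde dehydrogenase (ALDH) activity, read with the ALDEFLUOR stain. The ALDH-positive and the ALDH-negative fraction of each of 3 pools of 10 mice were hybridised to Affymetrix Mouse Genome 430 2.0 arrays, so that there were 3 arrays of each fraction. All mice were of 1 strain with no engineered allele named in the labels, each array holds RNA of pooled animals, and the gate measures enzyme activity rather than a lineage. The comparison asks which genes separate cells with high ALDH activity from the other cells of the same pool.

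BMPs are secreted dimers of the TGF-beta superfamily. They bring together type I receptors such as Bmpr1a and type II receptors such as Bmpr2, which phosphorylate Smad1, Smad5 and Smad9; these bind Smad4 and enter the nucleus. Among the genes they switch on are the Id genes, whose helix-loop-helix proteins lack a DNA-binding region and hold back E proteins, and Smad6 and Smad7, which feed back on the receptors. In the ovary the pathway is best known for exchange between oocyte, granulosa and theca cells.

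The promoters of 6 members were read from RefSeq in the mouse build GRCm38.p6. The 250 bases before the annotated start are shown for Bmp4, whose signal separated the fractions most clearly, and for Smad6, Id2 and Id3, genes that the pathway is known to induce. Each is written 5' to 3' in the direction of the gene, and capitals mark matches on either strand to GGCGCC or GGAGCC, motifs bound by BMP-activated Smads, or to CAGAC, the core of the general Smad-binding motif.
Bmp4, chr14:46390670-46390919, minus strand: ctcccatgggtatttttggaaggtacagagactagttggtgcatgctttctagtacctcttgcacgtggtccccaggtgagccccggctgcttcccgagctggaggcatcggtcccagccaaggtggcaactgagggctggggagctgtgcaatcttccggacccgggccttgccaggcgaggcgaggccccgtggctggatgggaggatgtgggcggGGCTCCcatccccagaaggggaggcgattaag
Smad6, chr9:64022060-64022309, minus strand: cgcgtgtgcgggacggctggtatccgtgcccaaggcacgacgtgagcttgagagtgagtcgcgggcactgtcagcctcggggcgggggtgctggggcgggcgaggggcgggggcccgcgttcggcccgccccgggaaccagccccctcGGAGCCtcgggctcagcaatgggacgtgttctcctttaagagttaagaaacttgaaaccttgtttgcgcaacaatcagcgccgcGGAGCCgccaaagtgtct
Id2, chr12:25096093-25096342, minus strand: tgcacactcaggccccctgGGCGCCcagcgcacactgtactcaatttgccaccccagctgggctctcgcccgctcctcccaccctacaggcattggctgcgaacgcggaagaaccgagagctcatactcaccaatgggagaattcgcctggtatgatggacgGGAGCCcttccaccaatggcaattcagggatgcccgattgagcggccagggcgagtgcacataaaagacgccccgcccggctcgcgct
Id3, chr4:136143572-136143821, plus strand: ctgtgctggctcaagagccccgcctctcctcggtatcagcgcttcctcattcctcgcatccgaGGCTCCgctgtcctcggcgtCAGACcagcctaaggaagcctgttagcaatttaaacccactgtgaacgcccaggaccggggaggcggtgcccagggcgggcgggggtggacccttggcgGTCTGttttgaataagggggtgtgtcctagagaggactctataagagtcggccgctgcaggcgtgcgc
Bmp4 had 1 match, to GGAGCC, 32 to 27 bases before its start and on the other strand. Smad6 had 2 matches to GGAGCC, Id2 had 1 match each to GGCGCC and GGAGCC, and Id3 had 1 match to GGAGCC and 2 to CAGAC. Of all 32851 promoter windows of the same length in that table, 9.59% held GGCGCC, 26% held GGAGCC and 42.2% held CAGAC. These matches describe the letters in the window and were not tested for binding.

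Levels below are log2 signal after quantile normalization of the arrays, and differences are ALDH-positive minus ALDH-negative cells within a pool. Signals of different probe sets are not comparable with each other as levels. Probe sets among the lower 40% by mean over the arrays, under a level of 2.73, were not tested, which left 15 of the 22 member probe sets and 9 of the 10 genes. Aldh1a2, a retinaldehyde dehydrogenase used as a check of the sort, was higher by 5.17 (SE 0.64). It too did not pass the test used below (limma adjusted p = 0.765). All 11 surface epithelium and mesothelium markers, keratins and mesothelin among them, lay higher in ALDH-positive cells in all 3 pools, against 11.3% of all genes tested. That list and Aldh1a2 were chosen with earlier results of these data known, so neither is an independent check, of cell type or of the sort. Granulosa markers averaged 5.36 to 5.81 in ALDH-positive and 4.16 to 6.13 in ALDH-negative cells, steroidogenic ones 7.76 to 8.15 and 4.76 to 8.58, while all 7 oocyte markers lay under 2.73 in the mean of each fraction. The array of ALDH-negative cells from pool 2 was unlike the rest, with correlations of 0.561 to 0.687 with the other arrays, against 0.845 to 0.974 among those 5, so that values by pool or without pool 2 are given beside the results. Its control probe sets of beta-actin read 3.53 to 5.03, against 7.73 to 11.32 on the other arrays, as deposited.

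No member passed the test, and Bmp4 came nearest. In limma's paired fit, 0 of 15 tested member probe sets had an adjusted p under 0.05, against 0% of all 27022 probe sets tested. At an unadjusted p under 0.05 there was 1 member probe set, that of Bmp4, against 2.45% of all probe sets. Of all 22 member probe sets, 6 lay higher in ALDH-positive cells in all 3 pools, against 9.9% of all probe sets, and 2 lay lower in all 3, against 11.7%. The groups did not overlap for 3 member probe sets that lay higher, against 3.23% of all, and for 1 that lay lower, against 4.17%. Several of these probe sets target the same gene, so they are not independent. The median difference over the 9 tested genes was 0.32, against -0.08 over all 12814 genes tested, and 0.24 without pool 2, against 0.04. With 3 pairs the smallest p of an exact sign-flip permutation test is 0.25, so no single gene could pass such a test.

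**Figure D1:**
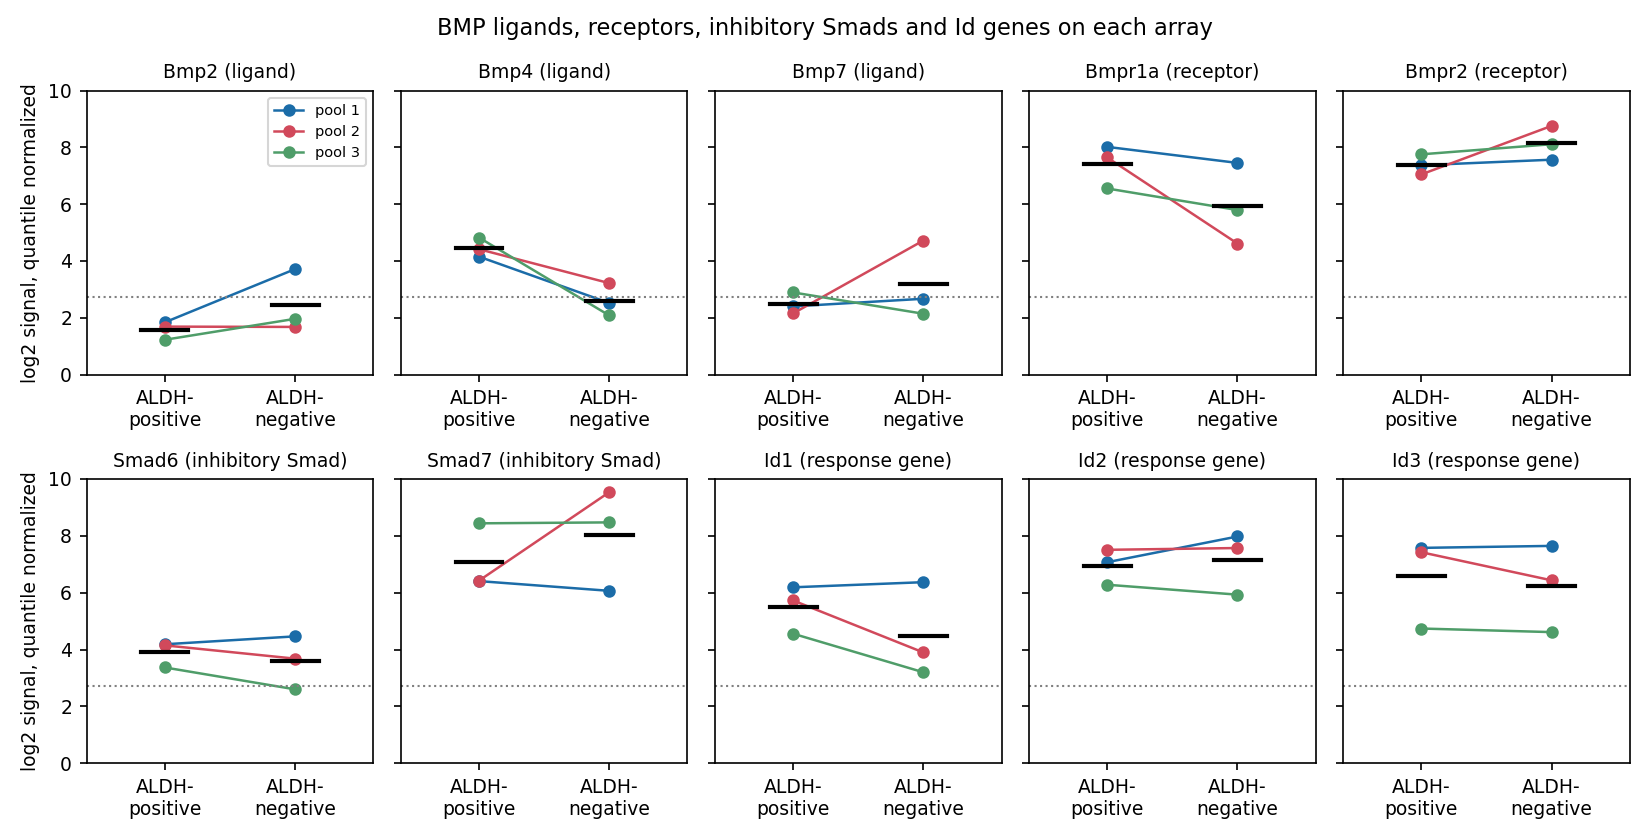
Log2 signal (quantile normalized) of the representative probe set of each of the 10 genes, with ALDH-positive cells left and ALDH-negative cells right in each panel. Coloured points joined by lines are the pools, black bars are means of 3 arrays, and the dotted line is the level of 2.73 under which probe sets were not tested; Bmp4 is the panel in which all ALDH-positive points lie above all ALDH-negative points.

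Among the ligands, Bmp4 signal was higher in ALDH-positive cells of every pool. It read 4.15, 4.42 and 4.83 in ALDH-positive cells of pools 1, 2 and 3, against 2.52, 3.22 and 2.09 in ALDH-negative cells. The groups did not overlap, and the ALDH-positive arrays lay close together. It averaged 4.47 ± 0.34 in ALDH-positive cells, against 2.61 ± 0.57 in ALDH-negative cells (SD, n = 3 each), a difference of 1.86 (SE 0.68, 95% interval 0.28 to 3.43) or 3.62-fold. It did not pass after Benjamini-Hochberg adjustment over all probe sets (limma adjusted p = 0.895). The ALDH-negative mean lies under 2.73, so the fold is against a level where background makes up much of the signal. Without pool 2 the difference was 2.19, so the array that stood apart did not make it larger. With array weights it was 2.47 and passed (limma adjusted p = 0.00115), as did 2953 of all 27022 probe sets tested. Those weights were 4.87 for pool 3, 1.3 for pool 1 and 0.158 for pool 2, so that fit rests mostly on 1 pool.

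Marker levels of the surface epithelium, and in part of stroma and smooth muscle, lay higher on the same arrays as Bmp4. The mean log2 level of the 11 surface epithelium and mesothelium markers was 7.38 to 8.05 in ALDH-positive and 4.08 to 4.57 in ALDH-negative cells. That of the 7 fibroblast and stroma markers was 5.46 to 5.77 in ALDH-positive and 3.67 to 4.84 in ALDH-negative cells, with 3 of 7 higher in all 3 pools (Col1a1, Col3a1 and Thy1), against 11.3% of all genes tested. Of the others, Col1a2, Dcn and Pdgfra lay lower in ALDH-positive cells of pool 3, by 1.17, 0.67 and 0.36, and Lum was dim. Of the 7 smooth muscle and pericyte markers, 2 lay higher in all 3 pools, Acta2 and Tagln, with mean differences of 3.59 and 2.94. Those of Myh11, Des and Cspg4 were -1.05, -0.33 and -0.53, and Cnn1 and Rgs5 were dim. The part of these cells in the Bmp4 difference was not tested. In these bulk samples fewer cells of a type and less RNA per cell cannot be told apart.

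Bmp2, a close relative of Bmp4, was too dim to be tested and did not share its pattern. It read 1.84, 1.69 and 1.23 in ALDH-positive cells, against 3.72, 1.68 and 1.97 in ALDH-negative cells of pools 1, 2 and 3. Only the ALDH-negative array of pool 1 exceeded 2.73, and the difference of -0.87 (SD of the 3 pairs 0.95) was mostly that of pool 1, at -1.87. In the values as deposited Bmp2 read 1.66, 1.45 and 1.33 in ALDH-positive and 3.77, 2.20 and 2.09 in ALDH-negative cells, so that its groups were apart before quantile normalization and overlapped after it.

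Bmp7, a ligand needed for kidney development and also made by theca cells, gave no steady difference. Its brightest probe set read 2.40, 2.16 and 2.89 in ALDH-positive cells, against 2.67, 4.72 and 2.14 in ALDH-negative cells. It passed the filter only because of its value on the ALDH-negative array of pool 2. The difference was -0.69 (SE 0.81, limma adjusted p = 0.895), and 0.24 without pool 2. The other 2 probe sets of Bmp7 were too dim to be tested and differed by -0.26 and 0.28. In the dimmest of them the groups did not overlap, at 1.52 to 1.63 in ALDH-positive and 0.98 to 1.48 in ALDH-negative cells, which is far under the level of 2.73.

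**Figure D2:**
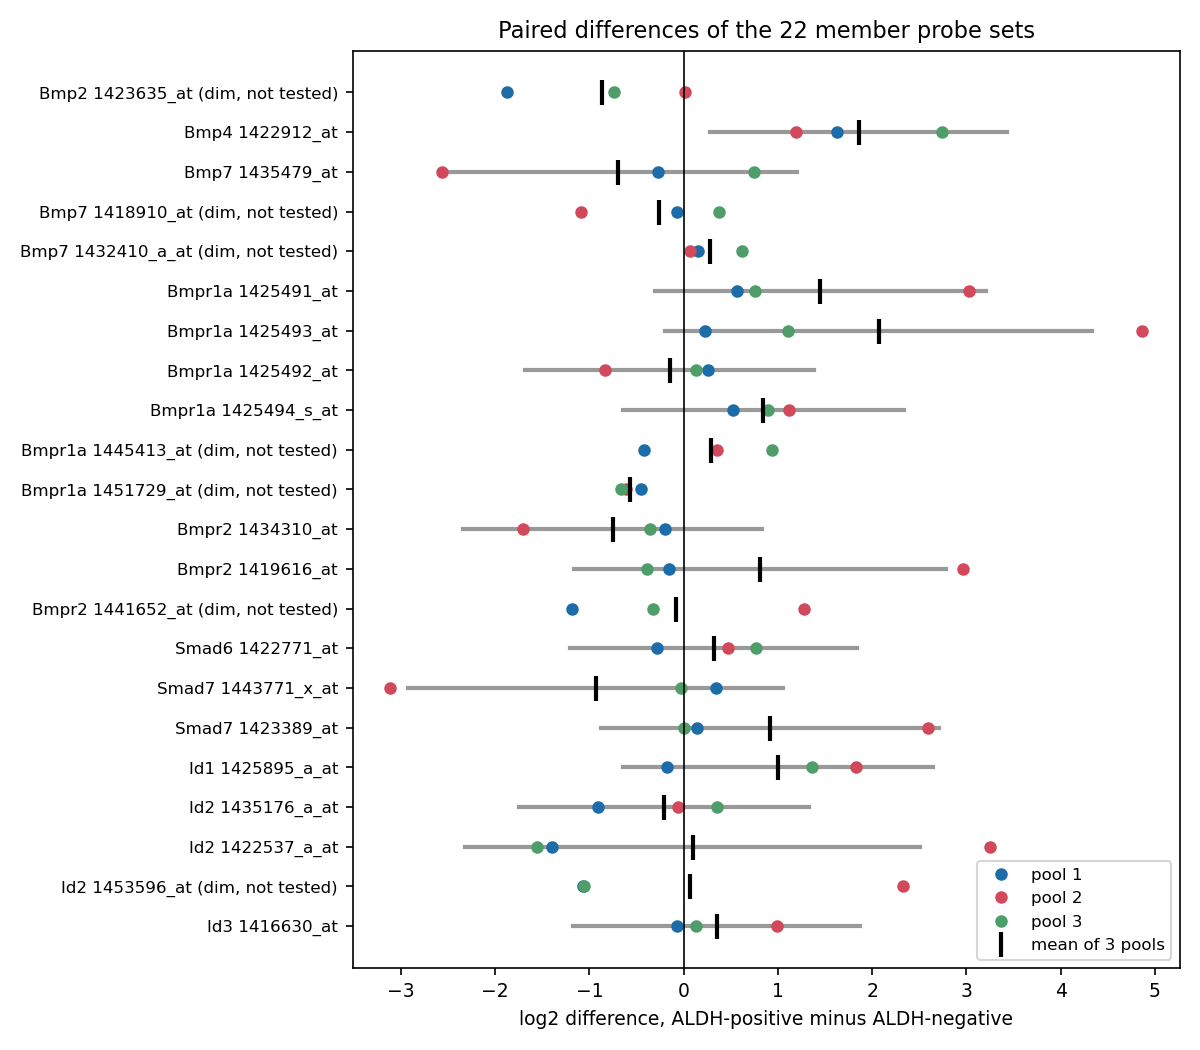
Log2 difference, ALDH-positive minus ALDH-negative cells, for each of the 22 member probe sets. Coloured points are the 3 pools, black ticks their mean and grey bars the 95% interval of limma's fit for the 15 tested probe sets; the interval of Bmp4, 0.28 to 3.43, lies above 0, and for both tested probe sets of Bmpr2 and of Smad7 the pool 2 point lies farthest from 0, to opposite sides.

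The receptors were bright in both fractions. Bmpr1a, a type I receptor for Bmp2 and Bmp4, read 8.02, 7.64 and 6.55 in ALDH-positive cells at its brightest probe set, against 7.45, 4.61 and 5.79 in ALDH-negative cells of pools 1, 2 and 3. Each ALDH-positive value exceeded the ALDH-negative value of its own pool, but the groups overlapped. The difference was 1.45 (SE 0.75, limma adjusted p = 0.895), and 0.66 without pool 2.

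A second Bmpr1a probe set differed by 0.85 (SE 0.64), and there the pools were close to each other, at 0.53, 1.11 and 0.90. On it the ALDH-positive arrays read 6.06, 6.01 and 6.09 and the ALDH-negative arrays 5.53, 4.90 and 5.19, with no overlap. The suffix of this probe set (_s_at) marks probes that can match transcripts of more than 1 gene. Of the other tested probe sets of Bmpr1a, 1 differed by 2.07, with 4.87 in pool 2, and 1 by -0.15. The 2 dim ones gave 0.29 and -0.57. The dimmest lay lower in all 3 pools without overlap, at 1.31 to 1.73 in ALDH-positive and 1.76 to 2.34 in ALDH-negative cells. Probe sets of Bmpr1a did not agree in direction, and the 4 tested ones were all above 0 only without pool 2, at 0.66, 0.67, 0.19 and 0.71.

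Bmpr2, the main type II receptor of BMPs, read 7.37, 7.05 and 7.75 in ALDH-positive cells, against 7.57, 8.76 and 8.11 in ALDH-negative cells. It lay lower in each pool, by 0.19, 1.71 and 0.36, with overlapping groups. The mean difference was -0.75 (SE 0.68, limma adjusted p = 0.895), and -0.28 without pool 2. Its second tested probe set differed by 0.81, with 2.97 in pool 2, and by -0.27 without pool 2. The signs of both tested probe sets were therefore negative in pools 1 and 3 and opposite to each other in pool 2. The remaining probe set was dim and differed by -0.08.

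The inhibitory Smads showed no difference beyond the spread between pools. Smad6, which blocks BMP receptors and competes for Smad4, read 4.18, 4.15 and 3.37 in ALDH-positive cells, against 4.46, 3.68 and 2.60 in ALDH-negative cells. Its difference was 0.32 (SE 0.65, 95% interval -1.20 to 1.84), with -0.28 in pool 1 and 0.47 and 0.77 in pools 2 and 3. Smad7, which acts on both TGF-beta and BMP receptors, was measured by 2 probe sets that disagreed. The brighter one, whose suffix (_x_at) marks probes that may cross-hybridise and which has no accession in the annotation, differed by -0.94 (SE 0.85). It read 6.41, 6.42 and 8.44 in ALDH-positive cells, against 6.07, 9.54 and 8.47 in ALDH-negative cells.

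The other Smad7 probe set differed by 0.91 (SE 0.77), and it read 6.72, 6.01 and 6.23 in ALDH-positive cells, against 6.57, 3.42 and 6.23 in ALDH-negative cells. Apart from pool 2, where the probe sets gave -3.11 and 2.59, both lay within 0.34 of equal signal in the fractions. Without pool 2 the differences were 0.15 and 0.08.

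Of the response genes, Id1 gave the largest difference in the mean but not in every pool. It read 6.19, 5.73 and 4.56 in ALDH-positive cells, against 6.37, 3.90 and 3.20 in ALDH-negative cells. ALDH-positive cells were brighter in pools 2 and 3, by 1.83 and 1.36, and slightly dimmer in pool 1, by 0.18. The mean difference was 1.00 (SE 0.71, 95% interval -0.65 to 2.65, limma adjusted p = 0.895), and 0.59 without pool 2. The groups overlapped.

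Id3 was nearly equal in the fractions of pools 1 and 3. It read 7.58, 7.42 and 4.74 in ALDH-positive cells, against 7.65, 6.43 and 4.61 in ALDH-negative cells. The difference was 0.35 (SE 0.65), and 0.03 without pool 2. It was larger before any further normalization (0.78) and in median-centred arrays (0.94). Id2 read 7.07, 7.51 and 6.28 in ALDH-positive cells at its brightest probe set, against 7.98, 7.57 and 5.93 in ALDH-negative cells.

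The Id2 difference was -0.21 (SE 0.66) and turned positive in median-centred arrays (0.59) and before any further normalization (0.42). At its second tested probe set Id2 read 6.05, 6.48 and 4.39 in ALDH-positive cells, against 7.45, 3.23 and 5.95 in ALDH-negative cells. There ALDH-positive cells were dimmer in pools 1 and 3, by 1.40 and 1.55, and brighter in pool 2, by 3.25, which gave a mean of 0.10 (SE 1.03) and -1.48 without pool 2. The dim probe set of Id2 had the same order, at -1.06, 2.32 and -1.06 in the 3 pools.

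The Id genes and Smad6 were dimmer in pool 3 than in pool 1, in both fractions. Id3 was dimmer in pool 3 than in pool 1 by 2.84 in ALDH-positive and by 3.03 in ALDH-negative cells, Id1 by 1.63 and 3.17, and Smad6 by 0.82 and 1.86. The probe sets of Id2 were dimmer there by 0.79 to 1.66 in ALDH-positive and by 1.03 to 2.05 in ALDH-negative cells. Of the 9 tested genes, 3 lay more than 1 log2 unit lower in pool 3 in both fractions, namely Id1, Id3 and Bmpr1a, against 9.68% of all genes tested. The other tested probe sets of Bmpr1a gave -0.80, 0.03 and 0.25 in ALDH-positive and -0.67, -0.34 and -0.63 in ALDH-negative cells. Smad7 moved the other way at its brighter probe set, by 2.03 in ALDH-positive and by 2.41 in ALDH-negative cells, while its other one gave -0.49 and -0.34. The brightest probe set of Bmpr2 gave 0.38 and 0.54, and its second -1.64 and -1.41. Bmp2, too dim to be tested, was also lower in pool 3, at -0.61 and -1.75. This contrast was chosen after the values were seen, each pool is 1 sample of each fraction, and no test was made. Bmp4 did not follow it, at 0.67 in ALDH-positive cells and -0.44 in ALDH-negative cells, and the median over all genes tested was 0.18 and 0.23.

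A sign of RNA quality moved with the pools. The 5' control probe set of Gapdh, a glycolytic enzyme, read 5.20 in pool 3 and 10.24 in pool 1 in ALDH-positive cells, and 6.63 and 10.30 in ALDH-negative cells, as deposited. Its 3' probe set read 10.50 and 11.24 in ALDH-positive cells, and 10.22 and 11.20 in ALDH-negative cells. On the ALDH-negative array of pool 2 the 5' probe set read 7.92. Whether this has a part in the dimmer Id signals of pool 3 was not tested.

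**Figure D3:**
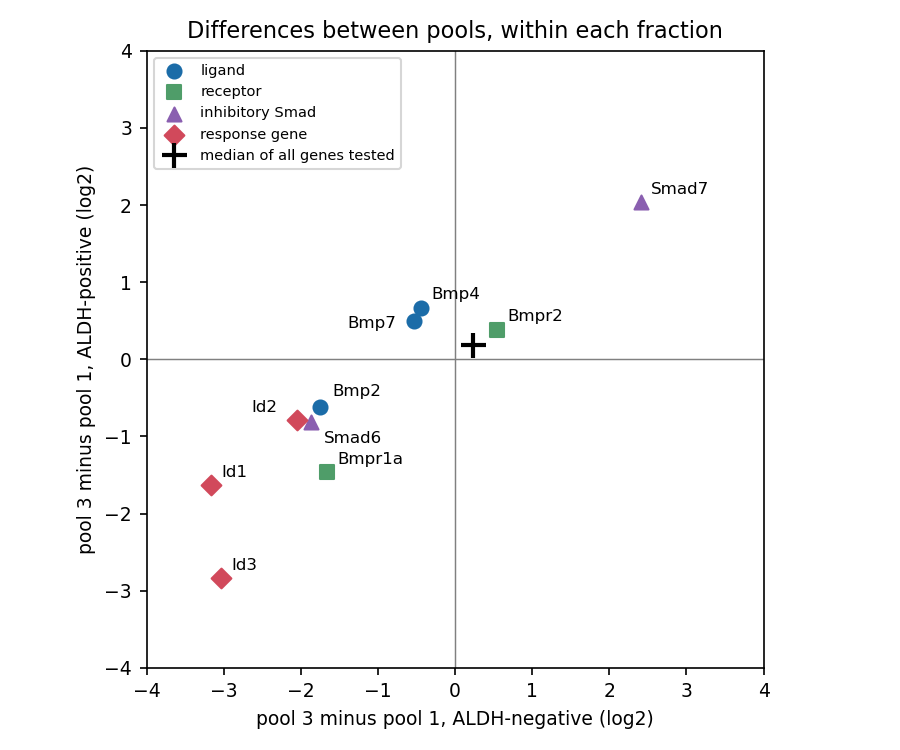
Log2 difference of pool 3 minus pool 1 for the representative probe set of each of the 10 genes, in ALDH-positive cells (vertical axis) and ALDH-negative cells (horizontal axis). Id1 and Id3 lie at the lower left, the black cross is the median of all genes tested at 0.18 and 0.23, and the Smad7 point, at 2.03 and 2.41, is the probe set that may cross-hybridise; its other probe set lies at -0.49 and -0.34 (ALDH-positive given first).

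Other genes of the pathway were taken from 6 lists of 65 genes, of which 60 had a probe set and 47 were tested. At their representative probe sets none passed the test (limma, 0 of 47), and 1 had an unadjusted p under 0.05. Of the 47, 19 lay higher and 28 lower in the mean, against 5893 and 6921 of all 12814 genes tested. In all 3 pools 7 lay higher and 4 lower, against 11.3% and 11.4% of all genes tested. The groups did not overlap for 4 genes that lay higher, against 3.55% of all genes tested, and for 2 that lay lower, against 3.32%. These were Bmp6, Bambi, Pmepa1 and Gata4, and Bmpr1b and Eng. The median difference of the 47 was -0.14, and 0.13 without pool 2, against -0.08 and 0.04 over all genes tested.

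Among the other ligands, Bmp6, known from oocytes and liver, also lay higher in all 3 pools. It read 6.14, 5.84 and 5.89 in ALDH-positive cells, against 4.73, 4.04 and 5.17 in ALDH-negative cells, with no overlap. The difference was 1.31 (SE 0.65, 95% interval -0.21 to 2.84, limma adjusted p = 0.895), and 1.07 without pool 2. Bmp8b differed by -1.11 (SE 0.76), and by -0.30 without pool 2. The mean difference of Gdf2, -0.98 (SE 0.86), was 0.13 without pool 2. Of this list 4 of 9 genes with a probe set were tested, and 0 passed in either direction.

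Of the 8 tested receptors and coreceptors outside the 10 genes, 2 lay higher and 6 lower in the mean, but without pool 2 it was 4 and 4. Their median difference was -0.78, and -0.18 without pool 2. Bmpr1b, the type I receptor whose variant raises ovulation rate in sheep, read 3.69, 3.35 and 2.99 in ALDH-positive cells, against 5.19, 4.48 and 3.73 in ALDH-negative cells. All its ALDH-positive values lay below all ALDH-negative values, and the pools gave -1.51, -1.13 and -0.74 (mean -1.13, SE 0.64, limma adjusted p = 0.895). Its other tested probe set gave -1.07, -1.29 and 0.35, and a dim one 0.22 in the mean, so the order in pool 3 was not shared. Eng, an endothelial coreceptor also named endoglin, read 3.75, 3.53 and 3.74 in ALDH-positive cells, against 4.50, 5.19 and 4.80 in ALDH-negative cells, again without overlap at this probe set (difference -1.16, SE 0.65). The second tested probe set of Eng gave -0.36, -3.36 and 0.03. The endothelial receptor Acvrl1 was dim and not tested; its brighter probe set gave -0.48, -2.00 and -0.35, and the other -0.47, -1.14 and 0.46.

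Endothelial markers had a mean level of 2.42 to 2.63 over 7 genes in ALDH-positive and 2.30 to 3 in ALDH-negative cells. Of the 7, 3 lay lower in all 3 pools (Tek, Tie1 and Emcn), but all of these were too dim to be tested. Among the 3 tested markers 0 lay lower and 1, Kdr, higher in all 3 pools, against 11.4% and 11.3% of all genes tested. The part of endothelial cells in the Eng difference was not tested. The type I receptor Acvr1 gave 0.26, 3.60 and -2.83 in the 3 pools, and 1.13 in the mean of its other tested probe set. The type II receptor Acvr2a gave -0.68 at its representative probe set and 1.96 at its other one. That other probe set gave 0.44, 3.51 and 1.93 in the pools (limma unadjusted p = 0.0384, adjusted p = 0.895). The coreceptor Tgfbr3 gave 0.32 (SE 0.75), with -0.37, 1.88 and -0.54 in the pools, and -0.45 without pool 2.

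Extracellular modulators were measured by 11 tested genes. Fstl1, a secreted glycoprotein that can bind BMPs, read 8.38, 7.85 and 6.40 in ALDH-positive cells, against 6.60, 4.31 and 5.58 in ALDH-negative cells. It was brighter in ALDH-positive cells of each pool, by 1.78, 3.54 and 0.82, although the groups overlapped (difference 2.04, SE 0.76, limma adjusted p = 0.895, and 1.30 without pool 2). Its second probe set lay higher in all 3 pools too, by 1.45, 3.08 and 0.32. Fstl1 was the gene with an unadjusted p under 0.05 at its representative probe set. The BMP antagonists Chrd (-0.23, SE 0.73), Grem1 (-0.14, SE 0.64) and Fst (-0.02, SE 0.66) differed by less than the spread between pools, and the untested Nog by 0.13. Without pool 2 these were 0.47, -0.25, 0.12 and 0.19, so that the signs of Chrd and Fst turned. Twsg1, a chordin partner, gave 1.74 through its pool 2 value of 5.73, and -0.26 without it; its other 3 probe sets gave -0.57, 0.69 and 1.26. Bmp1, the protease that cleaves chordin, gave -0.20 (SE 0.71), and 0.385 without pool 2.

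Inside the cell, Bambi and Pmepa1, both known as brakes on receptor or Smad signalling, lay higher in ALDH-positive cells of all 3 pools at their brightest probe sets. Bambi, a receptor-like protein without a kinase domain, read 4.63, 4.32 and 4.70 in ALDH-positive cells, against 4.10, 2.31 and 2.66 in ALDH-negative cells. Pmepa1, a TGF-beta-induced membrane protein, read 7.53, 7.43 and 7.65 in ALDH-positive cells, against 5.30, 5.62 and 6.97 in ALDH-negative cells. Neither gene had overlapping groups. Their differences were 1.53 (SE 0.68, limma adjusted p = 0.895) and 1.57 (SE 0.68, limma adjusted p = 0.895), and 1.28 and 1.45 without pool 2. The other tested probe sets of Pmepa1 gave smaller means of 0.66 and 0.02, the first higher in all 3 pools and the other lower in pool 2, by 0.43.

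The signal-transducing Smads gave no steady difference. Smad1 differed by -1.04 (SE 0.88) and Smad9 by -0.82 (SE 0.68), both mostly through pool 2, and by 0.13 and -0.37 without it. All ALDH-positive values of Smad9 lay under 2.73, at 2.34, 2.71 and 2.49, and its highest value was 4.45, on the ALDH-negative array of pool 2. The other tested probe sets of Smad1 gave -0.08 and -0.57. Smad5 gave 0.09 (SE 0.71), and 0.52 without pool 2. The shared partner Smad4 lay higher in all 3 pools, by 0.20, 3.24 and 0.45, and by 0.33 without pool 2. Its other 2 probe sets were not higher in pool 1, at -0.25 and -0.01.

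Of the other response genes, Gata4, a transcription factor of gonadal somatic cells, read 7.76, 7.89 and 7.83 in ALDH-positive cells, against 7.62, 4.63 and 6.72 in ALDH-negative cells. Its difference was 1.50 (SE 0.79), and 0.62 without pool 2; its second probe set gave -2.31 in pool 3. Hey1, a Notch and BMP target, gave -0.17, -2.75 and -0.27 in the 3 pools (mean -1.06, SE 0.77, and -0.22 without pool 2). Hamp, the hepcidin gene, gave -1.72, 0.34 and -1.53 (mean -0.97, SE 0.72, and -1.62 without pool 2). At its other probe set the mean was -1.79. Junb gave 0.39 (SE 0.68), and -0.08 without pool 2. Id4 was dim and not tested (difference -0.32). The E proteins that Id proteins bind, Tcf3, Tcf4 and Tcf12, differed by -0.27, -0.23 and 1.18, and by 0.20, -0.89 and 0.22 without pool 2. Their other tested probe sets did not agree, at -0.105 and 0.31 for Tcf3, -0.003 to 1.03 for Tcf4 and -0.28 to 0.99 for Tcf12. The suffix _x_at also marks the first probe sets given here for Hamp, Tcf3 and Tcf4.

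**Figure D4:**
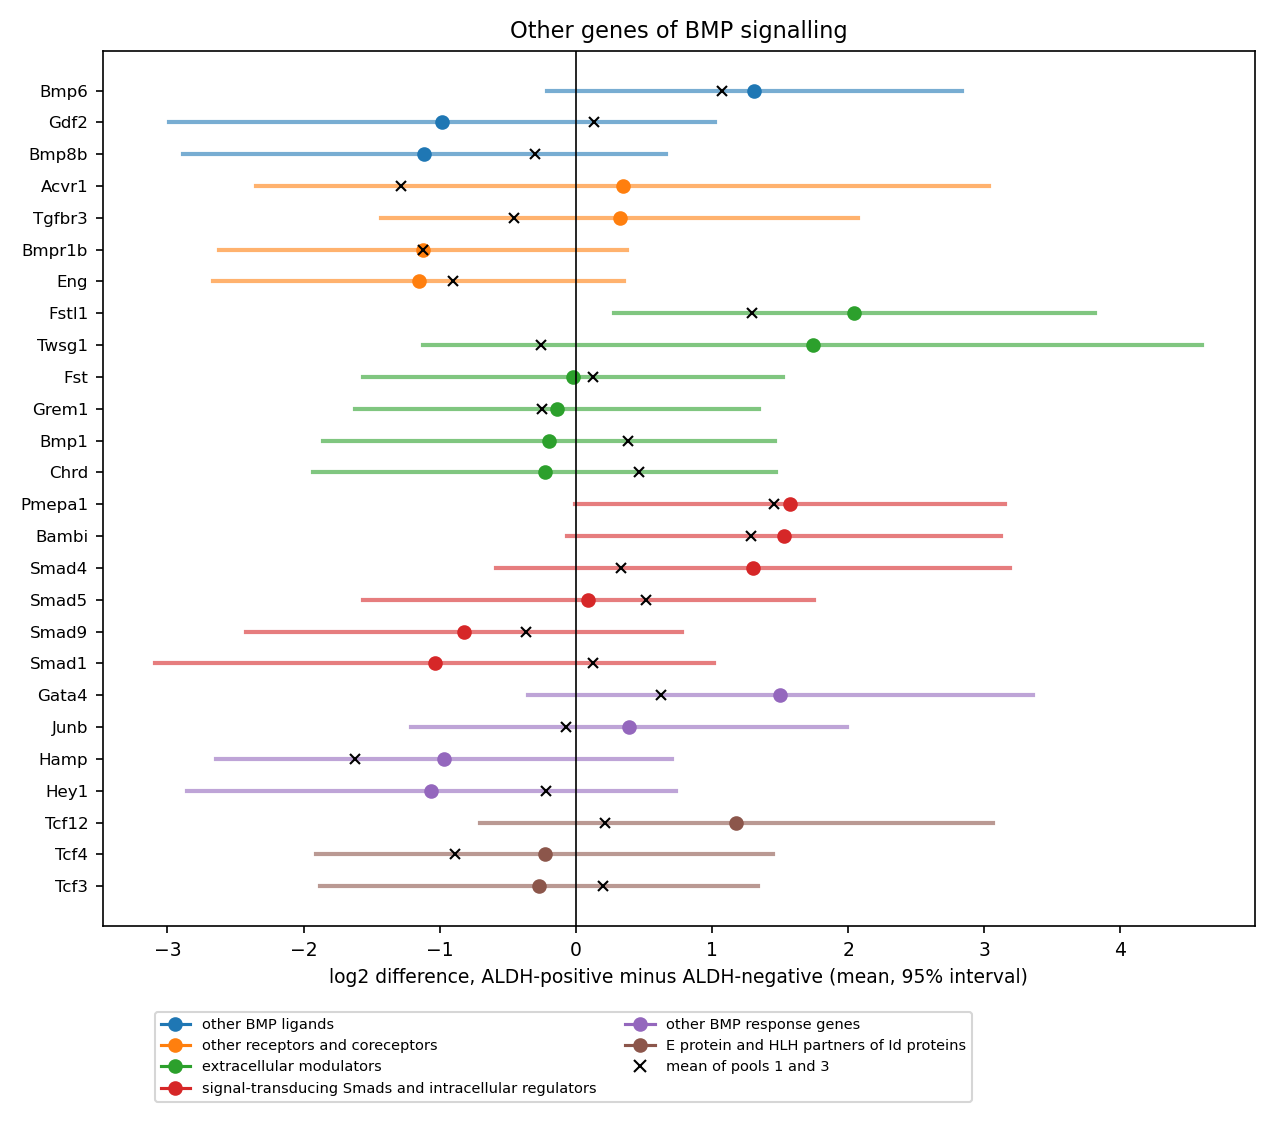
Mean log2 difference, ALDH-positive minus ALDH-negative cells, with its 95% interval (limma) for tested genes named from the wider BMP lists except Acvr2a, coloured by list. Crosses are means of pools 1 and 3; for Bmp6, Bmpr1b, Eng, Pmepa1 and Bambi the cross stays near the 3-pool mean, while for Twsg1 and Acvr1 it lies on the other side of 0.

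Genes whose pattern over the 6 arrays was most like a member were looked up among 12813 other genes by Pearson's r, as a description. For Bmp4 these were Gcnt2 (r = 0.991), Tkfc (r = 0.991) and Gcnt1 (r = 0.982). For Id1 they were Ubl3 (r = 0.999), Tmem184b (r = 0.999) and Pias3 (r = 0.997), and for Id3 Ddb1 (r = 0.999), Ssh2 (r = 0.998) and Tnfrsf12a (r = 0.997). With 6 arrays, 1 of which stood apart, and so many genes compared, the 3 genes of every tested member had an r between 0.982 and 0.999, and the points share their arrays and normalization.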

How the data were processed

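Expression was measured on 6 Affymetrix arrays, 3 of each fraction. The deposited table holds 1 value for each of 45101 probe sets per array. Per the series design the authors used GeneSifter software; the deposited values were taken as log2 signal from their range of 0.035 to 13.05, since nothing is stated on scale, summarisation or normalization in the sources used here. Amplified cDNA was hybridised, per the labels' protocols, which can lose 5' signal. The series design also names a paired SAM analysis. Array medians differed by 0.457, so 64 control probe sets were removed and the arrays quantile normalized. The lower 40% by mean were left out. Detection calls were not used.

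Gene symbols come from GEO's platform annotation and the RefSeq gene table of GRCm38.p6 (34945 with 1 symbol, 932 with several, 9160 with none; no symbol changed). The brightest tested probe set with 1 symbol represents a gene. The test was limma 3.58.1 (R 4.3.3) with the pool as a block, which follows the paired design; adjustment (Benjamini-Hochberg) ran over all 27022 probe sets tested. The pool of an array was taken from the replicate number in its title. Deviations from the group means of same-numbered arrays correlated at 0.38, -0.19 and 0.35. The value of pool 2 is negative and arrays of unlike number are not given beside it, so these values do not establish the pairing. The fit was run on simulated data with known differences and no outlying array, which does not show how it performs on these arrays. P-values and SE rest on the spread between 3 pools of mice, but not on that of the single probe set alone. In them limma draws the variance of each probe set toward a value shared by all probe sets tested. The number of arrays limits the precision. The members, lists and tests were chosen with earlier results of these data known. Named are all members, the 2 genes of smallest p per direction in each list and 12 fixed pathway genes. The contrast of pools 3 and 1, second probe sets and Acvr2a were added after the values were seen. Alternatives covered normalization, filter, block, weights, variance, arrays and probe set choice.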

Additional observations from a re-analysis of the deposited data

How the results depend on the processing

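The count of 0 called probe sets, 0 called member probe sets and 0 called genes of the wider BMP lists held in the values as deposited, in median-centred arrays, without a filter, with the lower 20% left out, with trended and robust variances, and without both the block and the ALDH-negative array of pool 2. Without the pool as a block it was also 0 probe sets, with 542 at an unadjusted limma p under 0.05 against 661 with the block. With array weights 2953 of 27022 probe sets, 2 of 15 member probe sets and 3 of 47 genes of the wider lists were called. These were Bmp4, the second Id2 probe set (-1.40, limma adjusted p = 0.0348), Acvr1, Bambi and Hamp. The ALDH-positive mean of Hamp lay under 2.73, and the weights favour pool 3. Leaving out 1 pool gave 0 to 7 called probe sets. Of the 10 member genes, 2 to 5 then lay higher in both remaining pools, 5 of them without pool 1, and 2 to 3 lay lower. Agreement in fewer pools is easier to reach, and the share of all genes that reach it was not counted.

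The differences of Bmp2, Bmp4, Bmpr1a, Id1, Id3 and Smad6 kept their sign in all 12 alternatives, from 1.51 to 2.48 for Bmp4. Several alternatives could not turn a sign. The filter settings, the fit without the block and the trended and robust variances leave each mean difference as it was. The mean of probe sets does so for genes with 1 tested probe set, and array weights for the untested Bmp2. Id3 fell to 0.033 without pool 2. Id2 turned to 0.42 in the values as deposited, 0.59 in median-centred arrays, 0.082 with array weights and 0.004 without both the pool block and the ALDH-negative array of pool 2. Bmp7 turned to 0.46 with array weights and 0.078 without that array and the block, and Bmpr2 to 0.022 in median-centred arrays and 0.029 in the mean of its probe sets. Over the fits without 1 pool, Id2 ranged from -0.46 to 0.14, Bmp7 from -1.49 to 0.24 and Smad7 from -1.58 to 0.17. In the values as deposited Smad6 was 0.15, Bmpr2 -0.145 and Smad7 -0.44, and Smad7 was -0.27 in median-centred arrays. The causes were not tested. Counts over all pools have no value without the ALDH-negative array of pool 2, which breaks a pair.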
